A study of Homo sapiens with 4 samples.

Results

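Of the 57820 genes in the deposited table, 72 are matrix proteases, their inhibitors or lysyl oxidases by name: 22 matrix metalloproteinases (MMP), 4 tissue inhibitors of metalloproteinases (TIMP), LOX with its 4 LOXL relatives (5 genes), 22 ADAM genes and 19 ADAMTS genes. The rule picks them by gene symbol (MMP, TIMP, LOX, LOXL, ADAM or ADAMTS followed by a number, where LOX itself has none), and uses no measured value. The families it names, and the gene lists used below, were chosen with earlier results of these data known. Shares of them set beside shares of all genes are therefore descriptions and not tests. RNA was measured in 4 libraries of A549, a long-established line from a human lung adenocarcinoma, called NRF2-activated in the series title. In 2 libraries the cells had been transfected with control siRNA, in 1 with CEBPB siRNA-1 and in 1 with CEBPB siRNA-2, and both of the latter lower the transcription factor C/EBP beta. All cells received fresh medium 24 h after transfection and were harvested 24 h later. The model is 1 cell line in culture, with no stroma and no animal host. The labels do not say if libraries of a group were grown as separate cultures. The p-values then reflect no more than the spread among these 4 libraries, part or all of which may be technical.

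The proteins encoded by these genes build and break down the matrix around cells. MMPs are zinc proteases, secreted or held at the membrane, that cut collagens, gelatin and other matrix proteins, and TIMPs bind and block them. ADAMs are membrane proteins, many of which shed the outer part of growth factors and receptors. ADAMTS proteases are secreted and trim proteoglycans, procollagens and microfibril proteins, and lysyl oxidases cross-link collagen and elastin. Carcinoma cells make some of these enzymes themselves, while fibroblasts and leukocytes supply others in a tumour.

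Levels are given in FPKM (read fragments per kilobase of a transcript, corrected for sequencing depth), so that genes can be compared per length. The libraries were close in depth (0.966 to 1.02 of control 1, from the steps of low FPKM values), and the authors' mean normalized counts sum to 8341083. CEBPB (ENSG00000172216.4), the target, was at 78.7 and 80.9 FPKM under control siRNA, 12.9 under siRNA-1 and 10.97 under siRNA-2. Of the A549 cells' epithelial markers, 5 of 5 averaged at least 1 FPKM, and their summed level was 3599 and 5058 FPKM in the controls against 1824 and 2841 in the siRNA libraries. KRT8 and KRT18 made up nearly all of that sum, and EPCAM was low, at 1.03 to 3.52 FPKM. KRT19, of the same list, lay the other way, at 2.41 and 3.28 FPKM under control siRNA against 5.32 and 7.38 under CEBPB siRNA. Of 11 fibroblast markers, 3 averaged at least 1 FPKM (ACTA2, COL1A1 and TAGLN). The 11 summed to 6.53 and 6.02 FPKM in the controls and 16.7 and 15.9 in the siRNA libraries, while the defining markers COL1A2 and FAP were at 0 in every library, and COL3A1, DCN and LUM did not exceed 0.0957. The part of these marker levels in the results below was not tested. Of 9 leukocyte markers 3 averaged at least 1 FPKM, the sum was 11.2 and 13.9 in the controls, 19.9 under siRNA-1 and 7.42 under siRNA-2, and PTPRC was at 0 throughout. The 3 endothelial markers found were at 0 in every library. In bulk RNA, more cells with a transcript and more transcript per cell cannot be told apart.

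LOXL2, ADAM9, ADAM19, MMP24, MMP10 and MMP9 were higher in both CEBPB siRNA libraries than in both controls, and each rose in the authors' deposited comparison. That table gives 6 of the 37 members with an adjusted p as higher (adjusted p below 0.05) and 0 as lower, where over all genes 2.71% were higher and 1.42% lower. Among members averaging at least 1 FPKM, TIMP1, TIMP2, ADAM15, ADAM17, ADAM22, MMP17 and ADAMTS10 also had all siRNA values above all control values. They passed neither test. In limma, a linear model fitted here over 14068 genes on log2(FPKM + 1), 0 members were called higher (0.064% of all genes were) and 0 lower (0.171% of all genes) at an adjusted p below 0.05. At an unadjusted p below 0.05, 9 members were higher and 0 lower in limma, where 7.07% and 5.13% of all genes were. Among the 9, MMP10 and ADAM19 averaged under 1 FPKM in the controls and entered the test only through their siRNA values. That filter favoured their place on the higher side. The limma count depends on how the siRNA libraries enter. In the fits that follow, the residual spread came from the control pair alone, and the difference between the siRNA libraries did not count towards it. Without siRNA-2, 7 members were called higher (6.18% of all genes), without siRNA-1 it was 0 (0.199% of all genes), and with each siRNA as its own group it was 6 (3.82% of all genes).

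Testing needed an average of 1 FPKM or more across the 4 libraries, and 25 of the 72 members reached it. Of these 25, 12 had both siRNA libraries above both controls and 3 had both below, against 23.5% and 21.0% of all genes tested. The log2 change was above 0 in 20 of the 25 (50.1% of all genes tested), and their median was 0.36, beside 0.00 for all genes. With siRNA-1 the median was 0.60 and with siRNA-2 it was 0.59 against the same controls, beside -0.03 and 0.04 for all genes. These counts and medians describe the tested members only. MMP10, MMP25, ADAM8 and ADAM19 averaged under 1 FPKM in the controls and were tested because the siRNA libraries raised their mean, and MMP2 was tested because of its control values. Of the 47 members not tested, 23 were listed at 0 in every library and the other 24 averaged at most 0.871 FPKM. Of these 24, 10 had both siRNA libraries above both controls and 0 had both below, beside 16.2% and 10.1% of all 13252 genes of that kind, where a gene at 0 in a control cannot lie below it.

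**Figure D1:**
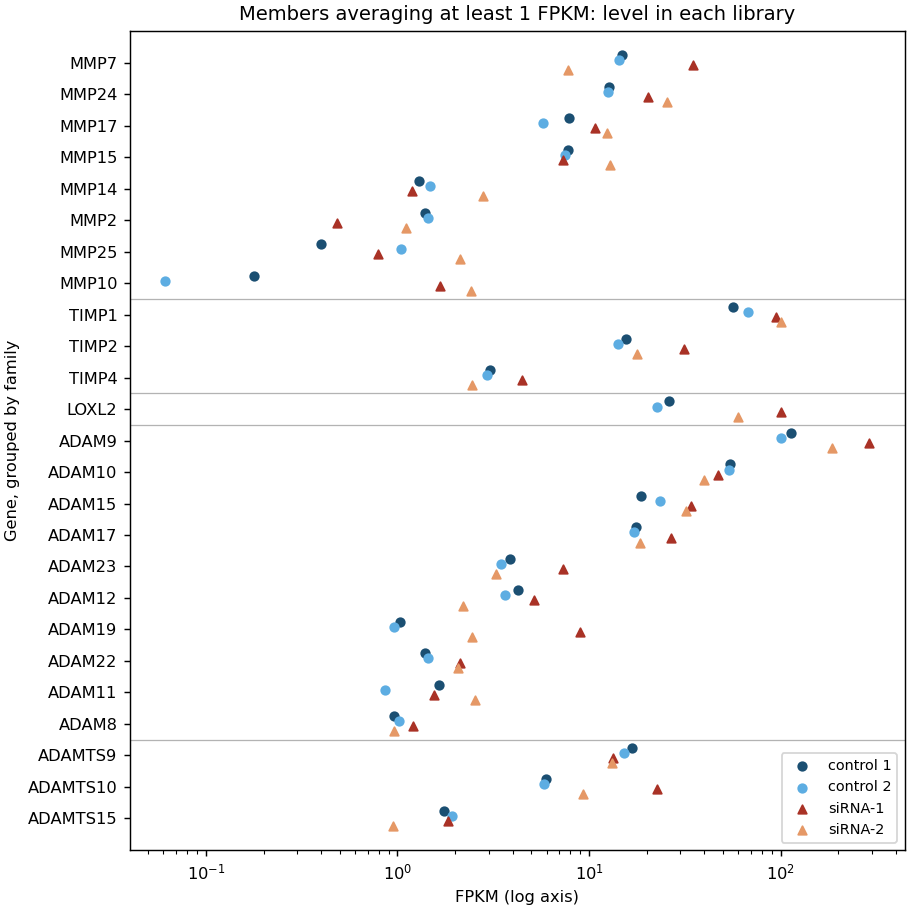
FPKM (log axis) of the 25 members that averaged at least 1 FPKM, grouped by family, with 1 point per library (circles, controls; triangles, CEBPB siRNA). For LOXL2 and ADAM9 both triangles lie to the right of both circles, and for MMP7 the triangles lie on opposite sides of the circles, at 35.0 FPKM under siRNA-1 and 7.81 under siRNA-2.

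The lysyl oxidase family was nearly all LOXL2 in these cells. LOXL2 (ENSG00000134013.11), a secreted cross-linker of collagen IV and other collagens, was at 26.3 and 22.6 FPKM under control siRNA, 101 under siRNA-1 and 59.9 under siRNA-2. Both siRNA libraries were thus well above both controls, and the siRNA-1 library was the higher. The limma log2 change in LOXL2 came to 1.63 ± 0.27 (SE, n = 2 libraries per group, adjusted p = 0.117), and the authors' deposited table gives 1.70 ± 0.30 (SE) with an adjusted p of 3.62e-06 on a mean normalized count of 1557. LOXL2 held between 95.8% and 97.2% of the summed FPKM of the 5 lysyl oxidase genes in every library.

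The other lysyl oxidases were low. LOXL4 was at 0.227 and 0.289 FPKM under control siRNA, 2.42 under siRNA-1 and 0.548 under siRNA-2, with an authors' deposited log2 change of 2.55 and an adjusted p of 0.0517. LOXL3 was at 0.211 and 0.289 FPKM under control siRNA against 1.01 and 1.02 under CEBPB siRNA, on a mean normalized count of 13.6, and the authors' deposited adjusted p was 0.857. Both genes had non-overlapping groups at levels too low to enter the limma test. LOX itself, the founding member of the family, ranged from 0.253 to 0.457 FPKM with the groups interleaved. LOXL1 was listed at 0 in 3 libraries and at 0.307 with siRNA-1.

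Among the ADAMs, ADAM9 was both the most abundant member of the whole set and one of those that rose in the authors' table. ADAM9 (ENSG00000168615.7), a membrane sheddase, was at 114 and 101 FPKM under control siRNA, 291 under siRNA-1 and 186 under siRNA-2. The groups did not overlap, and the lower siRNA library lay well above the higher control. Its log2 change was 1.11 ± 0.25 in limma (SE, n = 2 libraries per group, adjusted p = 0.180) and 1.14 ± 0.28 in the authors' deposited table (adjusted p = 0.00298, mean normalized count 6256). ADAM9 made up 52.2% and 48.8% of the summed ADAM FPKM in the controls, 68.4% under siRNA-1 and 64.0% under siRNA-2.

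ADAM19 (ENSG00000135074.11), a sheddase of neuregulins, was at 1.03 and 0.960 FPKM under control siRNA, 9.01 under siRNA-1 and 2.44 under siRNA-2. Both siRNA libraries were above both controls, but they differed from each other more than the lower one did from the controls. The limma log2 change came to 1.56 ± 0.51 (SE, n = 2 libraries per group, adjusted p = 0.316), and the authors' deposited table gives 2.54 ± 0.53 (adjusted p = 0.000144). CYFIP2 and NIPAL4, which overlap ADAM19 on the opposite strand in GENCODE 29, moved alongside it. CYFIP2 was at 9.63 and 11.3 FPKM under control siRNA, 31.8 under siRNA-1 and 18.9 under siRNA-2, and NIPAL4 at 0.439 and 0.291, then 4.40 and 1.96. The libraries were strand-specific, but whether strand was used in counting is not given in the sources used here, so reads of these partners cannot be told apart with certainty.

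The remaining ADAMs passed no test over all genes. ADAM15, a disintegrin with an integrin-binding motif, was at 18.7 and 23.5 FPKM under control siRNA against 34.0 and 32.0 under CEBPB siRNA, with no overlap. Its limma log2 change was 0.63 ± 0.18 (adjusted p = 0.276), and the authors' deposited adjusted p was 0.084. ADAM10, a main sheddase of Notch receptors and cadherins, had 54.5 and 53.4 FPKM in the controls against 46.8 and 39.8, a log2 change of -0.32 ± 0.16 in limma (adjusted p = 0.527). It lay on the other side of the controls from ADAM9, and the ratio of ADAM9 to ADAM10 FPKM was 2.09 and 1.89 in the controls, 6.21 under siRNA-1 and 4.66 under siRNA-2. ADAM17, which sheds TNF and EGF receptor ligands, was at 17.6 and 17.2 FPKM under control siRNA, 26.9 under siRNA-1 and 18.5 under siRNA-2 (limma log2 change 0.34 ± 0.22, adjusted p = 0.600).

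ADAM12 and ADAM23 passed no test, and in each the siRNA libraries lay on opposite sides of both controls. ADAM23, an adhesion protein without protease activity, was at 3.86 and 3.46 FPKM under control siRNA, 7.34 under siRNA-1 and 3.25 under siRNA-2. ADAM12, which is often found in tumour stroma, was at 4.28 and 3.62 FPKM under control siRNA, 5.18 under siRNA-1 and 2.19 under siRNA-2. Without siRNA-1 the limma log2 change of ADAM23 was -0.13, and without siRNA-2 that of ADAM12 was 0.32, each opposite in sign to the change over all 4 libraries (0.36 and -0.15). ADAM22 (1.40 and 1.45 FPKM, then 2.12 and 2.06) did not overlap between groups but changed by 0.06 in the authors' deposited table. Of the 22 ADAM genes, 8 were listed at 0 throughout, 6 of them among the 10 that lack protease activity or are pseudogenes.

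**Figure D2:**
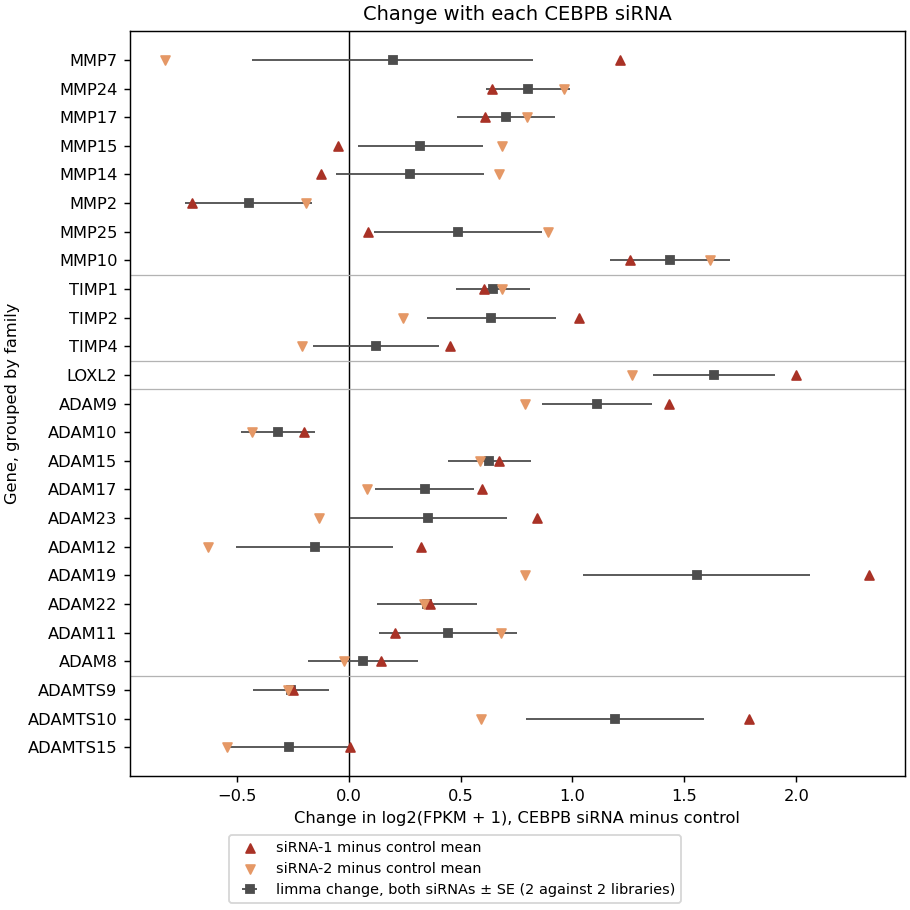
Change in log2(FPKM + 1) from the control mean for the 25 tested members, with siRNA-1 and siRNA-2 as separate triangles and the limma estimate over both (square) with its standard error. The squares run from -0.45 (MMP2) to 1.63 (LOXL2), and 20 of 25 lie above 0.

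Membrane-type MMPs were the best represented part of the MMP family, with 5 of 6 tested. MMP24 (ENSG00000125966.8), a membrane-type MMP first known from brain, was at 12.7 and 12.5 FPKM under control siRNA, 20.2 under siRNA-1 and 25.5 under siRNA-2. The controls were nearly equal and both siRNA libraries exceeded them. The log2 change was 0.80 ± 0.19 in limma (SE, n = 2 libraries per group, adjusted p = 0.201) and 0.87 ± 0.25 in the authors' deposited table (adjusted p = 0.0147). MMP24-AS1, which overlaps it on the opposite strand, was at 38.0 and 37.2 FPKM under control siRNA, 18.5 under siRNA-1 and 37.7 under siRNA-2, and was called in neither table. As for ADAM19, whether strand was used in counting is not given, so reads of MMP24 and MMP24-AS1 cannot be told apart with certainty.

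MMP17, a glycolipid-anchored member, was at 7.86 and 5.74 FPKM under control siRNA against 10.8 and 12.4 under CEBPB siRNA. Its groups did not overlap, and the limma log2 change was 0.70 ± 0.22 (adjusted p = 0.298), while the authors' deposited table gives a smaller 0.36 (adjusted p = 0.933). MMP14 and MMP15, which activate proMMP2 and cut collagen at the cell surface, were above both controls with siRNA-2 and below both with siRNA-1. MMP14 was at 1.29 and 1.48 FPKM under control siRNA, 1.19 under siRNA-1 and 2.80 under siRNA-2, and MMP15 at 7.73 and 7.52, then 7.35 and 12.9. MMP25 overlapped between groups and MMP16 averaged under 1 FPKM.

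Of the gelatinases, MMP9 was seen only with siRNA and MMP2 lay below the controls. MMP9 (ENSG00000100985.7), which digests gelatin and collagen IV, was listed at 0 in both controls, at 0.807 FPKM under siRNA-1 and at 1.32 under siRNA-2. It was the 1 member listed at 0 in both controls and above 0 in both siRNA libraries. The authors' deposited table gives an adjusted p of 0.0147 on a mean normalized count of 8.27, and no size of change is read against controls at 0. MMP9 averaged under 1 FPKM and was not tested in limma. MMP2 was at 1.39 and 1.44 FPKM under control siRNA, 0.485 under siRNA-1 and 1.11 under siRNA-2, a log2 change of -0.45 ± 0.28 in limma (adjusted p = 0.589) and of -0.85 in the authors' deposited table (adjusted p = 0.759).

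MMP10 (ENSG00000166670.5), or stromelysin 2, which cuts proteoglycans and activates other MMPs, was at 0.178 and 0.0613 FPKM under control siRNA, 1.67 under siRNA-1 and 2.42 under siRNA-2. Control levels were close to absent and the siRNA libraries were close to each other. The limma log2 change came to 1.44 ± 0.27 (SE, n = 2 libraries per group, adjusted p = 0.145) on a scale that understates the change of low genes. With a pseudocount of 0.1 in place of 1 it was 3.32. The authors' deposited table gives 3.75 ± 0.98 (adjusted p = 0.00551), on a mean normalized count of 18.3.

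MMP10 belongs to a row of 9 MMP genes that are neighbours on chromosome 11, in the order MMP7, MMP20, MMP27, MMP8, MMP10, MMP1, MMP3, MMP12 and MMP13 (RefSeq, GRCh38.p14). MMP7, or matrilysin, a small epithelial MMP, was the most abundant MMP in the controls, at 14.8 and 14.3 FPKM. It was at 35.0 FPKM under siRNA-1 and at 7.81 under siRNA-2, on opposite sides of the controls. MMP1, the interstitial collagenase, was at 0 and 0.0533 FPKM under control siRNA against 0.258 and 0.426 under CEBPB siRNA. MMP12 was listed at 0.163 with siRNA-1 alone, and MMP20, MMP27, MMP8, MMP3 and MMP13 at 0 in every library.

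**Figure D3:**
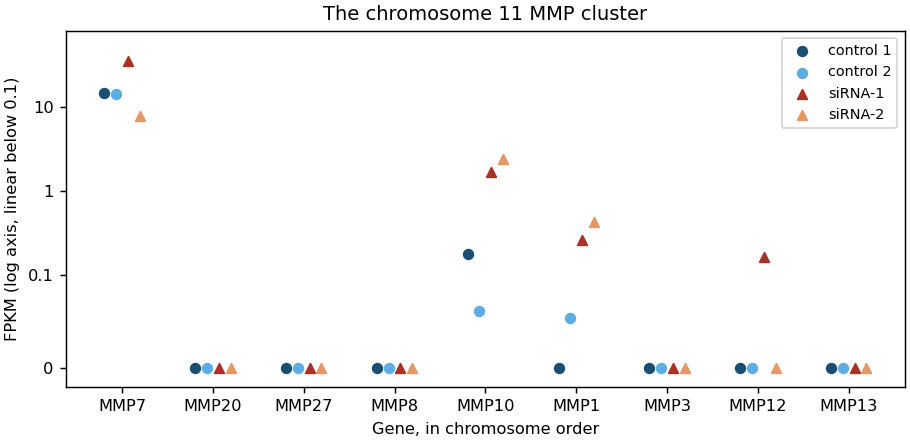
FPKM (log axis, linear below 0.1) of the 9 neighbouring MMP genes in chromosome order, with 1 point per library (circles, controls; triangles, CEBPB siRNA). Values above 0 are seen for MMP7, MMP10, MMP1 and MMP12, and the other 5 genes lie at 0.

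Promoters are shown for MMP10 and for the searched genes that share a motif with it. Beside them stand MMP24 and ADAM19, 2 other members that rose in the authors' table and hold none. Of the 6 that rose there, only MMP10, MMP24 and ADAM19 had a promoter to search. LOXL2, ADAM9 and MMP9 were not searched. Each line gives the last 120 bases before the annotated start, 5′ to 3′ on the gene's strand, from RefSeq (GRCh38.p14). Capitals mark TGANTCA, a loose form of the site bound by AP-1 factors, which is long known from MMP promoters. Among the 4 promoters with a match, it has the usual form, TGAGTCA, in MMP7 alone, and reads TGAATCA in MMP10, MMP20 and ADAMTS12. Members without a promoter to search may hold the motif too.
MMP10, chr11:102780629-102780748, minus strand: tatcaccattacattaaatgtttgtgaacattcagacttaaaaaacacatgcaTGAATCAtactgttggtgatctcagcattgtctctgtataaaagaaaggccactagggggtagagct
MMP7, chr11:102530748-102530867, minus strand: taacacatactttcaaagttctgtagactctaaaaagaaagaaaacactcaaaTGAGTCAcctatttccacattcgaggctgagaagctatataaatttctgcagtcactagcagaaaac
MMP20, chr11:102625333-102625452, minus strand: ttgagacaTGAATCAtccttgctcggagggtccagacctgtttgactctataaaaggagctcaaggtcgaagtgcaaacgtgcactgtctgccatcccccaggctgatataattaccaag
ADAMTS12, chr5:33891991-33892110, minus strand: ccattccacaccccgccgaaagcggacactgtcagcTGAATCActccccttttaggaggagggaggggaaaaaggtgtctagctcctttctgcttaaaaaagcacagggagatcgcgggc
MMP24, chr20:35226570-35226689, plus strand: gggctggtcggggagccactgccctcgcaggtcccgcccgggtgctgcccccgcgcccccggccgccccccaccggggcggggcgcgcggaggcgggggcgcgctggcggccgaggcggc
ADAM19, chr5:157575776-157575895, minus strand: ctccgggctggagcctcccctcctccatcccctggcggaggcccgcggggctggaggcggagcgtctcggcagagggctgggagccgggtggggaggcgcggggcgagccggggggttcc

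In MMP10 and in MMP7 the match lies at the same place, from 67 to 61 bases before the start. In ADAMTS12 it begins 84 bases and in MMP20 112 bases before the start. Of the 72 members, 42 had a promoter in the table, and these 4 held TGANTCA on either strand within 250 bases before the start (9.52%), as did 6.60% of all 27305 promoters. The motif TTGCNNAA, which covers the C/EBP consensus, was found in 2 of the 42 (4.76%), MMP8 and ADAM29, and in 9.13% of all promoters. None of the 42 held both motifs. A match shows only that these letters are present. The 4 genes with TGANTCA did not move alike: MMP10 rose in the authors' table, MMP7 went opposite ways with the siRNAs, MMP20 was listed at 0, and ADAMTS12 was at 0.297 and 0.447 FPKM under control siRNA against 1.30 and 0.508 under CEBPB siRNA.

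The TIMPs, which restrain these proteases, were higher in sum in both siRNA libraries. TIMP1, the most abundant, was at 56.7 and 67.5 FPKM under control siRNA against 94.5 and 100 under CEBPB siRNA. The siRNA libraries were close to each other and both above the controls. Its limma log2 change came to 0.64 ± 0.17 (SE, n = 2 libraries per group, adjusted p = 0.234), and the authors' deposited adjusted p was 0.204. TIMP2 was at 15.6 and 14.1 FPKM under control siRNA, 31.4 under siRNA-1 and 17.7 under siRNA-2, so most of its limma change of 0.64 ± 0.29 (adjusted p = 0.464) lay in the siRNA-1 library. TIMP4 was at 3.03 and 2.94 FPKM under control siRNA, 4.44 under siRNA-1 and 2.45 under siRNA-2. TIMP3, which is held in the matrix, did not exceed 0.155 FPKM.

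Among the ADAMTS genes, ADAMTS9 and ADAMTS10 held most of the signal. ADAMTS10, which associates with fibrillin microfibrils, was at 5.93 and 5.79 FPKM under control siRNA, 22.7 under siRNA-1 and 9.32 under siRNA-2. The siRNA values lay above both controls and differed from each other by more than the siRNA-2 library did from the controls. Its limma log2 change came to 1.19 ± 0.40 (SE, n = 2 libraries per group, adjusted p = 0.327), and the authors' deposited table gives 1.23 ± 0.42 (adjusted p = 0.0699). ADAMTS9, a proteoglycan-cleaving member, was at 16.8 and 15.2 FPKM under control siRNA against 13.3 and 13.1 under CEBPB siRNA, a log2 change of -0.26 ± 0.17 in limma (adjusted p = 0.603). ADAMTS15, of the same group, was at 1.75 and 1.92 FPKM under control siRNA, 1.84 under siRNA-1 and 0.944 under siRNA-2. ADAMTS7, which cuts COMP and has near-identical pseudogene copies that make its level uncertain, was at 0.213 and 0.223 FPKM under control siRNA against 1.06 and 0.681 under CEBPB siRNA. The procollagen-processing ADAMTS2 and ADAMTS14 were listed at 0 throughout, and ADAMTS3 did not exceed 0.108 FPKM.

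**Figure D4:**
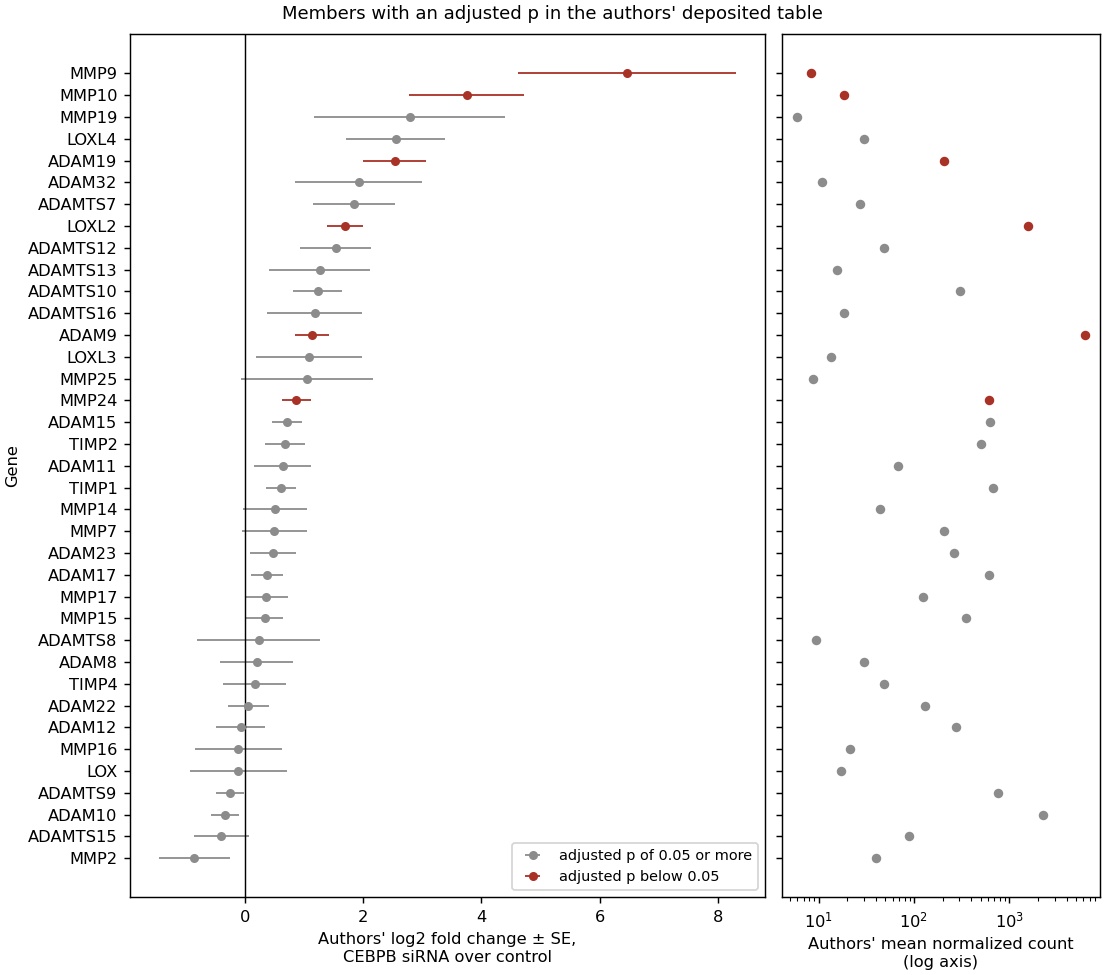
The authors' log2 fold change with its standard error (left) and mean normalized count on a log axis (right) for the 37 members with an adjusted p in their table. The 6 members below an adjusted p of 0.05 (red) all lie above 0, from MMP24 at 0.87 to MMP10 at 3.75 for those with FPKM above 0 in the controls. The MMP9 point is set against controls listed at 0 FPKM, so its place on the axis is not a measured size, and MMP9 and MMP10 rest on mean counts of 8.27 and 18.3.

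Summed over each family, FPKM was higher in both siRNA libraries for the MMPs, the TIMPs, the lysyl oxidases and the ADAMs. The ADAM sum was 218 and 206.5 FPKM in the controls, 425 under siRNA-1 and 290.0 under siRNA-2. ADAM9 alone supplied 52.2% and 48.8% of it in the controls, 68.4% under siRNA-1 and 64.0% under siRNA-2. ADAM10, the next most abundant ADAM, lay below both controls with each siRNA, so a higher sum is not a rise of the whole family. The lysyl oxidase sum was 27.0 and 23.6 FPKM, then 104.5 and 62.0, and the TIMP sum 75.3 and 84.7, then 130.5 and 120.3. The MMP sum was 46.8 and 44.3 FPKM in the controls, 79.95 under siRNA-1 and 69.2 under siRNA-2, and MMP7 alone supplied 43.8% of it with siRNA-1 but 11.3% with siRNA-2. The ratio of the MMP to the TIMP sum was 0.622 and 0.523 in the controls and 0.613 and 0.575 in the siRNA libraries. The ADAMTS sum was 25.5 and 24.2 FPKM under control siRNA against 42.0 and 25.6 under CEBPB siRNA, so that siRNA-2 exceeded the higher control by less than the controls differed. With 2 libraries against 2, p = 0.333 is the smallest an exact permutation test (two-sided) of such a sum allows, so none is given.

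**Figure D5:**
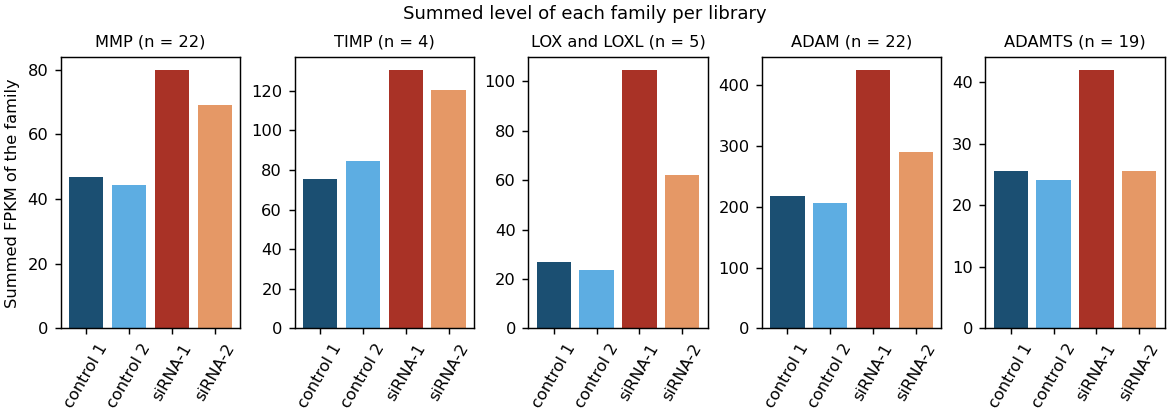
Summed FPKM of each family in each of the 4 libraries (bars from 0, blue for controls and red or orange for CEBPB siRNA), with the number of genes per family in brackets. The siRNA-1 bar is the tallest in all 5 panels, and in the ADAMTS panel the siRNA-2 bar (25.6) is level with the controls (25.5 and 24.2).

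The siRNAs target the same gene, and the members were compared between them in a limma fit with 3 groups. MMP7 passed, with a log2 difference of 2.03 ± 0.18 (SE, n = 1 library per siRNA, adjusted p = 0.0431), higher with siRNA-1. No other member was higher and 0 were lower, where 0.114% and 0.327% of all genes were. At an unadjusted p below 0.05, 12 of the 25 differed in either direction, against 22.4% of all genes. The next differences in size were ADAM19 (1.54, adjusted p = 0.0722), ADAMTS10 (1.20, adjusted p = 0.0723), ADAM23 (0.97, adjusted p = 0.115) and ADAM12 (0.95, adjusted p = 0.131), each higher with siRNA-1 in limma. In all, 16 of the 25 members were higher with siRNA-1 than with siRNA-2 (43.7% of all genes), among them 9 of 10 ADAMs but 1 of 8 MMPs, MMP7. The fit has 1 residual degree of freedom, which the controls supply, and takes the spread of the lone siRNA libraries to equal theirs. With a pseudocount of 0.1 the MMP7 difference was 2.15 with an adjusted p of 0.0619.

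Genes that act on or with these enzymes were read from 4 lists of symbols outside the name rule. Of 20 ADAM partners and shed substrates, 18 were tested in limma, 0 passed, and at an unadjusted p below 0.05 there were 5 higher and 0 lower (7.07% and 5.13% of all genes). The authors' deposited comparison has 4 of 20 rising and 0 falling (2.71% and 1.42% of all genes). TSPAN5, a tetraspanin that carries ADAM10, was at 2.44 and 2.79 FPKM under control siRNA against 10.2 and 6.40 under CEBPB siRNA (authors' log2 change 1.73, adjusted p = 0.000445). TSPAN15, of the same tetraspanin group, was at 23.2 and 22.6 FPKM, then 67.3 and 33.2 (1.12 in the authors' deposited table, adjusted p = 0.0435). The other listed tetraspanins were not called. TSPAN14, TSPAN17 and TSPAN33 overlapped between groups (-0.04, 0.13 and -0.002 in the authors' deposited table), and TSPAN10 averaged 0.803 FPKM. TGFA, an EGF receptor ligand that ADAM17 sheds, was at 1.25 and 1.07 FPKM, then 11.1 and 3.04 (2.50 in the authors' deposited table, adjusted p = 0.000329). TNF, the cytokine after which ADAM17 was first named, was listed at 0 under control siRNA and at 3.12 and 0.815 FPKM under CEBPB siRNA (adjusted p = 0.00107 in the authors' deposited table).

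The next list held 24 partners of collagen and elastin, from collagen-modifying enzymes to microfibril proteins and fibronectin, not all of which act in cross-linking. Of these, 18 were tested and 0 passed in limma. At an unadjusted p below 0.05 there were 7 higher and 1 lower (7.07% and 5.13% of all genes). The authors' deposited comparison has 4 rising and 1 falling of the 23 with an adjusted p (2.71% and 1.42% of all genes). Those called are matrix proteins, and the hydroxylases PLOD1, PLOD2 and PLOD3 were not called (authors' adjusted p for PLOD2 0.0516). FBN2, a microfibril protein, was at 1.17 and 1.89 FPKM under control siRNA against 4.89 and 7.38 under CEBPB siRNA, and rose by 1.99 (authors' adjusted p = 2.84e-06). Among the latent TGF-beta binding proteins, which sit on microfibrils, LTBP2 (1.58), LTBP3 (0.93) and LTBP4 (0.75) rose in the authors' deposited table. LTBP1 did not (-0.007), at 6.17 and 6.41 FPKM under control siRNA against 6.50 and 6.68 under CEBPB siRNA. LTBP4 had the smallest limma adjusted p of the list, 0.115, at 14.7 and 12.7 FPKM under control siRNA against 33.4 and 28.2 under CEBPB siRNA. Fibronectin, FN1, had a log2 change of -0.96 in the authors' deposited table (adjusted p = 0.00902), going from 49.95 and 63.5 FPKM to 27.9 and 33.9.

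Of the 16 listed activators and inhibitors found in the table, 10 were tested and 0 passed in limma, with 2 higher and 3 lower at an unadjusted p below 0.05 (7.07% and 5.13% of all genes). In the authors' deposited comparison 1 of 13 with an adjusted p rose and 0 fell (2.71% and 1.42% of all genes). SPOCK1, a matrix proteoglycan, rose in the authors' deposited table (3.04, adjusted p = 2.78e-06), from 0.361 and 0.2 FPKM to 2.55 and 2.25. It was among the 2 higher in limma, and entered that test only through its siRNA values. PCSK6, a proprotein convertase, was at 15.7 and 17.6 FPKM under control siRNA against 8.88 and 6.92 under CEBPB siRNA, and BSG, the MMP inducer basigin, at 414 and 437, then 259 and 345, with no call in either table. Of the 15 ADAMTS-like genes and ADAMTS substrates found, 5 were tested, 0 passed in limma (1 higher and 0 lower at an unadjusted p below 0.05), and 1 of 8 with an adjusted p, THBS1, rose in the authors' deposited table (0.82, adjusted p = 0.0147). Thrombospondin 1 was at 10.4 and 10.2 FPKM under control siRNA against 18.3 and 17.8 under CEBPB siRNA. Versican, VCAN, a substrate of several ADAMTS proteases, was at 64.1 and 71.7 FPKM, then 48.1 and 54.3, and passed in neither table.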

How the data were processed

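RNA from 4 libraries was sequenced as 76-base single-end reads, per the labels' protocols. Per the submitters' processing notes, the tools were STAR 2.7.0d, StringTie 2.1.4, HTSeq 0.13.5 and DESeq2 1.26.0 with build hg19, in no stated role. The deposited per-library values carry no unit and were taken as FPKM, since the columns sum to between 494066 and 528606. The remaining columns are, per the file headers, a DESeq2 table: a signal column with the authors' mean normalized count, log2 columns with the authors' fold change and standard error, a score that is the Wald statistic as deposited, and the authors' raw and adjusted p-value. They were quoted as the authors' and not recomputed.

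The limma fit (3.58.1, R 4.3.3) used log2(FPKM + 1) with an intensity trend, no block, genes averaging at least 1 FPKM, and Benjamini-Hochberg adjustment over all 14068 genes. The residual degrees of freedom were 2, with 3.61 added by the prior. Its log2 changes understate those of low genes. On simulated data for the siRNA against control comparison (14068 genes, changes in genes of at least 5 FPKM), true log2 changes of 1, 2, 3 and -2 were recovered in 10%, 82%, 96% and 80% of genes. Counts per library were not used here, so no counting interval is given.

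The gene families whose symbols the rule matches, and the lists, were chosen with earlier results of these data known. Named members were those past either test, those with a log2 change of at least 1 without overlap, the 3 most abundant per family and the 5 with the largest siRNA difference. List genes named were those past either test, or else the smallest limma p. Others were chosen after their values were seen. GENCODE 29 served only to find overlapping genes.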

Additional observations from a re-analysis of the deposited data

Results flagged for a closer look

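MMP7 was the 1 member whose change differed between the siRNAs in the 3-group limma test. It was 2.03 higher on the log2 scale with siRNA-1 than with siRNA-2 (adjusted p = 0.0431), with 1 library per siRNA, and lay above both controls with the former and below both with the latter.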

How the results depend on the processing

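With each siRNA as its own group, 538 genes were higher and 433 lower in limma, as were 6 members higher (LOXL2, ADAM9, ADAM19, ADAMTS10, MMP24 and MMP10) and, in the lists of partners and substrates, 15 higher and 2 lower. Leaving out 1 library gave 0 to 870 genes higher, 0 to 894 lower, 0 to 7 members higher, and 0 to 19 list genes higher and 0 to 3 lower. The counts of 0 over all genes came without control 1 (736 at an unadjusted p below 0.05) or control 2 (685). Without siRNA-1 they were 28 and 44, and 0 members passed. The largest counts came without siRNA-2, where the 7 members were LOXL2, ADAM9, ADAM19, ADAMTS10, MMP10, MMP7 and TIMP2. With no filter 0 genes were higher and 0 lower (2438 at an unadjusted p below 0.05). Members called lower stayed at 0 in each of the 12 alternatives. CEBPB lost its call without control 1 (adjusted p = 0.461), without control 2 (0.328) and with no filter (0.262). The members' median change was 0.52 with a pseudocount of 0.1, 0.64 at a mean of at least 5 FPKM, and 0.33 to 0.60 with 1 library left out. The sign turned between leaving out siRNA-1 and leaving out siRNA-2 for 8 tested members. They were ADAM23 (-0.13 and 0.84), MMP7 (-0.82 and 1.21), TIMP4 (-0.21 and 0.45), ADAM12 (-0.63 and 0.32) and ADAMTS15 (-0.54 and 0.0055). The others were MMP14 (0.67 and -0.12), MMP15 (0.69 and -0.05) and ADAM8 (-0.02 and 0.15). Members differing between the siRNAs numbered 3 with median-of-ratios scaling, 0 with a pseudocount of 0.1, 4 with no filter and 5 at a mean of at least 5 FPKM. Without a control that comparison has no residual degree of freedom and was not run. The cause of these shifts was not tested. With each siRNA as its own group, or with 1 siRNA library left out, the residual spread came from the control pair alone.

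The titles number libraries 1 and 2 in both groups, but nothing ties equal numbers to a shared culture, and deviations of equal-numbered libraries correlated at 0.0754 across genes. With the replicate block 11 genes were higher, 14 lower and 0 members called. Low counts limit MMP9, MMP10, MMP1 and the lysyl oxidases other than LOXL2.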

Other observations

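The FPKM and count columns did not always list the same members. Of the 23 members at 0 FPKM in every library, 8 had a mean normalized count above 0 in the authors' deposited table, up to 3.24 for ADAMTS2. ADAMTS13, the protease of von Willebrand factor, was listed at 0 FPKM in 3 libraries and at 0.612 with siRNA-1, beside a mean normalized count of 15.6 in the authors' deposited table. For the 25 tested members the sign of the FPKM change and of the authors' log2 change was the same in 25, from the same 4 libraries. In GENCODE 29, 44 of the 72 members, and 15 of the 25 tested, overlap a gene on the opposite strand.

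ADAM32, the gene next to ADAM9 on chromosome 8 and without protease activity, was at 0.0985 and 0 FPKM under control siRNA against 0.343 and 0.425 under CEBPB siRNA (authors' deposited adjusted p = 0.529). The next 2 genes of that row, ADAM18 and ADAM2, were listed at 0 throughout. MMP19 was at 0.0684 and 0 FPKM under control siRNA, 0.622 under siRNA-1 and 0.172 under siRNA-2, and ADAMTS16 at 0.230 and 0.241, then 0.760 and 0.396.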
